A study of Mus musculus with 6 samples.

Results

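The miR-376 family and miR-134 are microRNAs from neighbouring hairpins of the distal Dlk1-Dio3 cluster on mouse chromosome 12. Every name on the array whose stem is miR-376a, miR-376b, miR-376c or miR-134 was taken, with both arms and whether or not it gave a signal, which gave 7 of 690 names. They are mmu-miR-376a-3p, mmu-miR-376a-5p, mmu-miR-376b-3p, mmu-miR-376b-5p, mmu-miR-376c-3p, mmu-miR-376c-5p and mmu-miR-134-5p, written below without the mouse prefix. The stems were chosen by the measured wound and skin values of these arrays, in which they moved unequally, so their differences are given as a description and carry no test.

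The cells came from transgenic SMA-GFP mice, in which GFP follows the promoter of smooth muscle actin, a protein of contractile cells such as myofibroblasts and also of vascular smooth muscle. Wound cells with high GFP, labelled myofibroblasts, were sorted 7 days after injury (preparations 3, 4 and 6), and skin cells with low GFP, labelled fibroblast-like, came from dermis that was not described as injured (preparations 1, 2 and 5). Both groups carried the transgene and were sorted as negative for CD45, a blood cell marker, and CD31, an endothelial marker. Total RNA of each preparation was labelled with Cy3 and read on 1 array. Strain, sex and age are not given in the sources used here. Tissue and GFP level changed together and cannot be told apart, and no label says whether preparations came from separate animals or pools, so the spread between them may be partly technical.

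A microRNA is cut from a hairpin precursor as a 5p and a 3p arm, and it finds its target messenger RNAs mainly through its seed, bases 2 to 8. The distal Dlk1-Dio3 cluster is imprinted and expressed from the maternal chromosome, and its hairpins are thought to be cut from long shared transcripts. The miR-376 hairpins are paralogs that arose by duplication, and their precursors are known in mouse and human tissues, brain above all, as targets of adenosine-to-inosine editing by ADAR enzymes, also within the seed. miR-134 is best known from rodent neurons, where it acts at dendritic spines on Limk1, a kinase that controls actin.

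The mature sequences show how close the family members are, which matters for probes meant to tell them apart. The RefSeq table used here (GRCm38.p6) matched 6 of the 7 names, all but miR-376c-3p. Each is written 5′ to 3′ with the seed in capitals.
miR-376a-3p: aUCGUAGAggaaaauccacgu
miR-376b-3p: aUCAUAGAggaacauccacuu
miR-376b-5p: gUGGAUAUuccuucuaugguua
miR-376c-5p: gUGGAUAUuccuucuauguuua
miR-376a-5p: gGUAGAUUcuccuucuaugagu
miR-134-5p: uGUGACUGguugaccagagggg

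Counted from 1 at the 5′ end, miR-376a-3p and miR-376b-3p shared 18 of 21 bases and differed at G4A, A13C and G20U, with the base of miR-376a-3p first. The first of these lies in the seed, so the 2 microRNAs have different seeds, UCGUAGA and UCAUAGA. miR-376b-5p and miR-376c-5p shared 21 of 22 bases, differed only at G19U and have the same seed, UGGAUAU. No other mature mouse microRNA in the RefSeq table had the seed of any of the 6. The hairpins lie on the plus strand, Mir376c at chr12:109722718-109722803, Mir376b at chr12:109723458-109723539, Mir376a at chr12:109723781-109723848 and Mir134 at chr12:109734139-109734209. The 3 miR-376 hairpins are 654 and 241 bases apart, and Mir134 starts 10290 bases after Mir376a with 5 other hairpins between them.

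The arrays held 1928 probes, 1 to 4 for each name, and 222 of 690 names were tested. Signals are given as a percentage of the scaling value of their array, which is the 75th percentile of 275 probes well above background on all 6 arrays. That value was 786 to 1136 intensity units on the wound arrays and 1244 to 1772 on the skin arrays. The median local background was 49.0 to 55.5 intensity units. Between 211 and 233 names were well above background on the wound arrays and 187 to 224 on the skin arrays. On the log2 scale signals under 2.53% were set to a floor of -5.30, which compresses the differences of dim names. The number of arrays limits the precision. Each column of the authors' deposited log2 table equals 1 array up to a constant, but its column numbers match the numbers in the array titles for 0 of 6. Its columns 1 to 3 hold wound preparations 3, 4 and 6 and its columns 4 to 6 hold skin preparations 1, 2 and 5. The groups used here are those of the array titles.

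The labelled cell type was checked against marker microRNAs. Of 12 mesenchymal names (miR-199, miR-214, miR-143, miR-145, miR-21 and miR-22), 9 were well above background on every array, with summed signals of 3717% to 4040% on the wound arrays and 2715% to 3165% on the skin arrays. The bright miR-21a-5p weighs heavily in these sums, with a mean log2 level of 4.24 in wound and 2.01 in skin. The sums therefore do not show that the other mesenchymal names were higher in wound. The 3 smooth muscle names, of miR-143 and miR-145, are also among the mesenchymal names. They summed to 42.2% to 44.4% on the wound arrays and 17.6% to 20.6% on the skin arrays, with 1 of the 3 well above background on every array. Of 12 keratinocyte names 2 were measurable on some array, miR-205-5p and miR-203-3p, and the list summed to 0.513% to 0.920% on the wound arrays and 12.0% to 20.4% on the skin arrays. The 2 endothelial names, both arms of miR-126, summed to 5.55% to 7.73% on the wound arrays and 3.63% to 5.83% on the skin arrays. None of the 8 striated muscle names and 1 of the 9 neural names was well above background on any array. The part of these other cell types in the results below was not tested.

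The members fell into 3 patterns. miR-376b-3p, miR-376a-3p and, near the floor, miR-376b-5p were higher on every wound array than on every skin array. miR-376c-3p was present in both tissues with overlapping groups. Its skin arrays 2 and 5 lay near the wound arrays, and its skin array 1 lay far below them. miR-134-5p and miR-376a-5p were dim in the wound cells and not well above background in the skin cells, and miR-376c-5p gave no measurable signal. In bulk RNA, fewer cells of a type and less RNA per cell cannot be told apart. Of the 7 names 6 passed the filter on dim signals, which asked for at least 1 probe above background on all 3 arrays of one of the groups. Of these, 5 passed through the wound arrays alone and so could hardly come out lower there, and miR-376c-3p was the only one well above background on all 6 arrays. The fit over all names (limma, Benjamini-Hochberg) called 3 of the 6 higher and 0 lower, beside 44.1% of the 222 tested names called higher, 20.7% called lower and 64.9% called in either direction. These counts add nothing to the choice of the members, which used the same contrast.

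**Figure D1:**
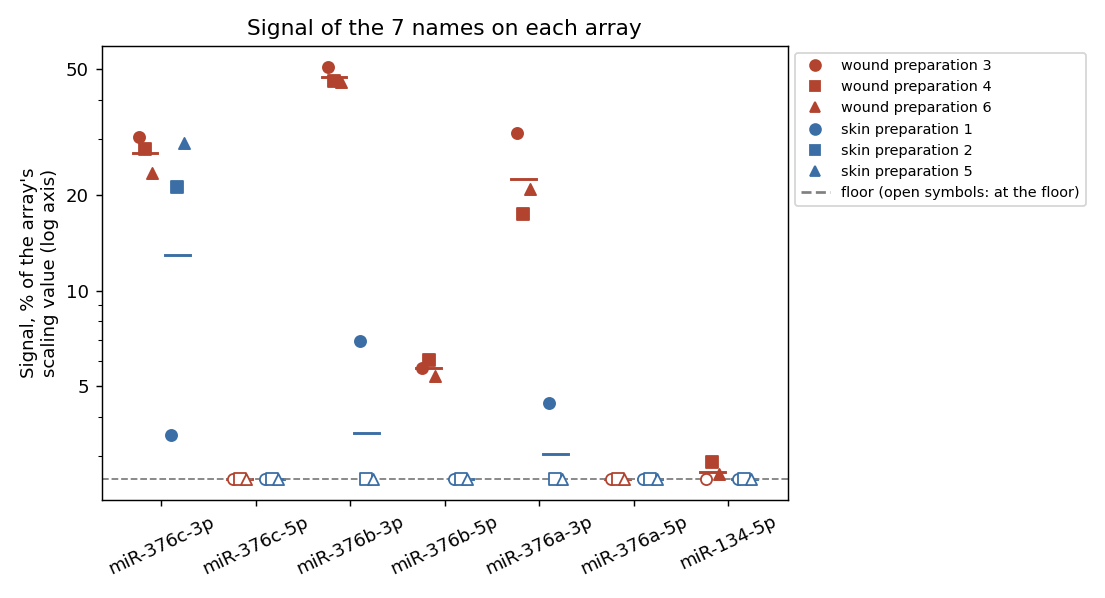
Signal of the 7 names on each array as a percentage of the array's scaling value (log axis), wound left of skin for each name, in gene order. Symbols are arrays, bars are group means on the log scale, and open symbols lie at or under the floor of 2.53%. miR-376b-3p and miR-376a-3p separate the groups, and miR-376c-3p has skin arrays at 3.51%, 21.3% and 29.1%.

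miR-376b-3p showed the widest gap between the groups among the members on the log2 scale with its floor. It gave 51.0%, 45.7% and 45.5% of the scaling value on wound arrays 3, 4 and 6, against 6.94%, 1.53% and 1.21% on skin arrays 1, 2 and 5. The wound arrays lay close together, skin array 1 stood above the other 2 skin arrays, and the groups did not overlap. On the log2 scale the level was -1.08 ± 0.09 in wound and -4.82 ± 0.84 in skin (mean ± SD, n = 3 each), a difference of 3.74 or 13.4-fold, with 2 of the 3 skin values at the floor. All wound values lay above all skin values in 48.6% of the 222 tested names, and the groups were separated in either direction in 69.8%.

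Both probes of miR-376b-3p showed the difference. Probe A_54_P2717 gave 74.3%, 66.6% and 66.6% on the wound arrays and 8.32%, 2.05% and 1.85% on the skin arrays, an 18.3-fold difference of group means. Probe A_54_P2716 gave 27.7%, 24.8% and 24.3% on the wound arrays and 5.55%, 1.01% and 0.560% on the skin arrays, or 7.77-fold. The folds of the 2 probes are both measured against signals that were partly at the floor, and on both probes skin array 1 was the highest of the skin arrays. A_54_P2717 was well above background on skin arrays 1 and 5, and A_54_P2716 on skin array 1 alone among the skin arrays.

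miR-376a-3p, which differs from it at 3 bases, also had its highest skin signal on array 1. It gave 31.3%, 17.5% and 20.9% on wound arrays 3, 4 and 6, against 4.43%, 0.819% and 1.57% on skin arrays 1, 2 and 5. The groups did not overlap, and wound array 3 stood above the other wound arrays. The log2 level was -2.15 ± 0.43 in wound and -5.03 ± 0.47 in skin (n = 3 each), a difference of 2.88 or 7.38-fold with 2 of the 3 skin values at the floor. Its probes gave 9.71-fold (A_54_P1518) and 4.74-fold (A_54_P1517), also with skin values under 2.53% set to the floor. The brighter probe, A_54_P1518, gave 44.7%, 24.7% and 29.2% on the wound arrays and 5.48%, 1.22% and 2.22% on the skin arrays. It was well above background on skin arrays 1 and 5, and A_54_P1517 on skin array 1 alone among the skin arrays. How far probes for such near-identical sequences also bind each other's target was not tested.

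miR-376b-5p, the other arm of the Mir376b hairpin, was near the floor but also separated. It gave 5.72%, 6.05% and 5.39% on the wound arrays, against 1.21%, 1.06% and 1.12% on the skin arrays, which all lie under the floor. The log2 difference was 1.17 (2.25-fold) with every skin value at the floor, where no spread is measured. The signal came from 1 of its 2 probes, A_54_P3561, with 9.75%, 10.9% and 9.49% on the wound arrays and 2.24%, 1.64% and 1.87% on the skin arrays. These skin signals all lie under the floor, against which the wound mean was 3.96-fold higher, while A_54_P3560 stayed at background on all 6. A_54_P3561 was well above background on skin array 5 and on neither of the other skin arrays.

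miR-376c-3p, from the first of the 3 miR-376 hairpins, gave 30.6%, 27.9% and 23.6% on wound arrays 3, 4 and 6, against 3.51%, 21.3% and 29.1% on skin arrays 1, 2 and 5. Skin arrays 2 and 5 lay near the wound arrays, skin array 1 lay far below all others, and the groups overlapped. The log2 level was -1.88 ± 0.19 in wound and -2.95 ± 1.65 in skin (n = 3 each), and the difference of 1.07 was smaller than the spread between skin arrays. It became 0.14 without skin array 1 and 1.65 without skin array 5. In slide row 1, which holds wound array 3 and skin arrays 1 and 2, the difference was 1.82, and in row 2, with wound arrays 4 and 6 and skin array 5, it was -0.18.

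That spread over the skin arrays was the largest of the 222 tested names on the log2 scale with its floor, with a standard deviation of 1.65 log2 units against 1.39 for the next name and a median of 0.15. The mean of skin arrays 2 and 5 minus skin array 1 was 2.83 for miR-376c-3p, -1.45 for miR-376b-3p and -0.81 for miR-376a-3p. Skin array 1 was therefore the lowest skin array for miR-376c-3p and the highest for its 2 paralogs. For the paralogs arrays 2 and 5 lie at the floor, so these differences are compressed and their sizes have no rank. miR-494-3p of the same cluster, measured on all 6 arrays, gave -1.29, the direction of the paralogs. Among the cluster's other names well above background on all 6 arrays, skin array 1 was also highest for miR-379-5p, miR-411-5p, miR-299b-5p and miR-154-5p. The same held for miR-300-3p, miR-377-3p and miR-382-5p, but not for miR-329-3p. The keratinocyte list summed to 12.0% on skin array 1 and to 20.4% and 13.2% on skin arrays 2 and 5, and its part in the spread was not tested.

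The 4 probes of miR-376c-3p gave different orders of the arrays. The dimmest in wound, A_54_P2825, gave 13.4%, 10.9% and 5.50% on the wound arrays and 1.24%, 19.9% and 27.4% on the skin arrays. The brightest, A_54_P2828, gave 52.6%, 50.2% and 45.1% on the wound arrays and 6.47%, 22.8% and 32.1% on the skin arrays. By A_54_P2828 and A_54_P2827 all wound arrays lay above all skin arrays. By A_54_P2825 and A_54_P2826 skin arrays 2 and 5 lay above all wound arrays.

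The log2 difference between the groups was 1.31 by A_54_P2827 and 1.55 by A_54_P2828. By A_54_P2826 it was 0.41 with the signal of skin array 1 raised to the floor and 0.52 with that signal as measured. By A_54_P2825 the same step turned its sign, -0.26 with the floor and 0.08 without it, so this probe gives no direction. The signal of A_54_P2828 over that of A_54_P2825 was 3.93, 4.59 and 8.20 on wound arrays 3, 4 and 6, against 1.15 and 1.17 on skin arrays 2 and 5. On skin array 1 the probes A_54_P2825 and A_54_P2826 were not well above background, so no ratio is given there. The probes thus stood in a different proportion on the wound arrays than on skin arrays 2 and 5. Of the 5 names with 4 probes that were all well above background on at least 5 arrays, miR-376c-3p had the widest range of this ratio, 7.14-fold, and miR-196a-5p followed with 1.93-fold. The ratio of its 2 brighter probes alone ranged 1.43-fold over the 6 arrays, rank 14 of 110 names, whose median was 1.21-fold. These ratios were looked at after the probe values were seen.

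**Figure D2:**
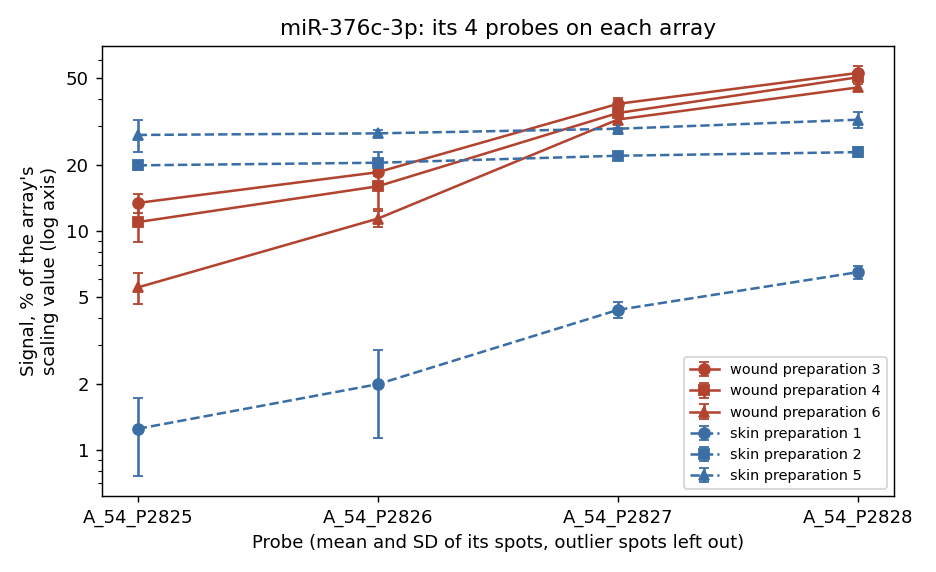
The 4 probes of miR-376c-3p on each array, as a percentage of the array's scaling value (log axis), wound in solid and skin in dashed lines; points are means over a probe's spots and bars their SD on 1 array. On skin arrays 2 and 5 the probes lie between 19.9% and 32.1%, and on the wound arrays between 5.50% and 52.6%.

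miR-134-5p had 4 probes, and their mean hardly left the floor. The means were 2.18%, 2.87% and 2.63% on the wound arrays, against 0.0869%, -0.145% and 0.133% on the skin arrays. On the log2 scale the difference was 0.08, with wound array 3 and every skin array at the floor, so its size is set by the floor. It was 1.00 with a lower floor. As measured, the wound means lay above the skin means, but all of them were near or under the floor. The brightest probe, A_54_P1065, gave 5.55%, 5.85% and 5.61% on the wound arrays, against 0.476%, 0.527% and 0.387% on the skin arrays. It was well above background on all 3 wound arrays and on no skin array, and its wound level was at least 2.53-fold higher than the lowest skin signal that could be measured. A second probe, A_54_P1064, was well above background on 2 of the 3 wound arrays, and the other 2 probes on no array.

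miR-376a-5p, the other arm of the Mir376a hairpin, had its mean of 4 probes at the floor on every array. Its brightest probe, A_54_P3551, gave 4.06%, 3.47% and 3.51% on the wound arrays, against 0.628%, 0.464% and 0.503% on the skin arrays, at least 1.63-fold higher in wound. It was well above background on each wound array and on no skin array, and its other 3 probes were so on none. For miR-376c-5p none of the 4 probes passed background anywhere, and the means were 0.688%, 0.322% and 0.209% on the wound arrays and 0.233%, 0.195% and 0.0915% on the skin arrays. Its seed is that of miR-376b-5p, which was measured in wound.

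**Figure D3:**
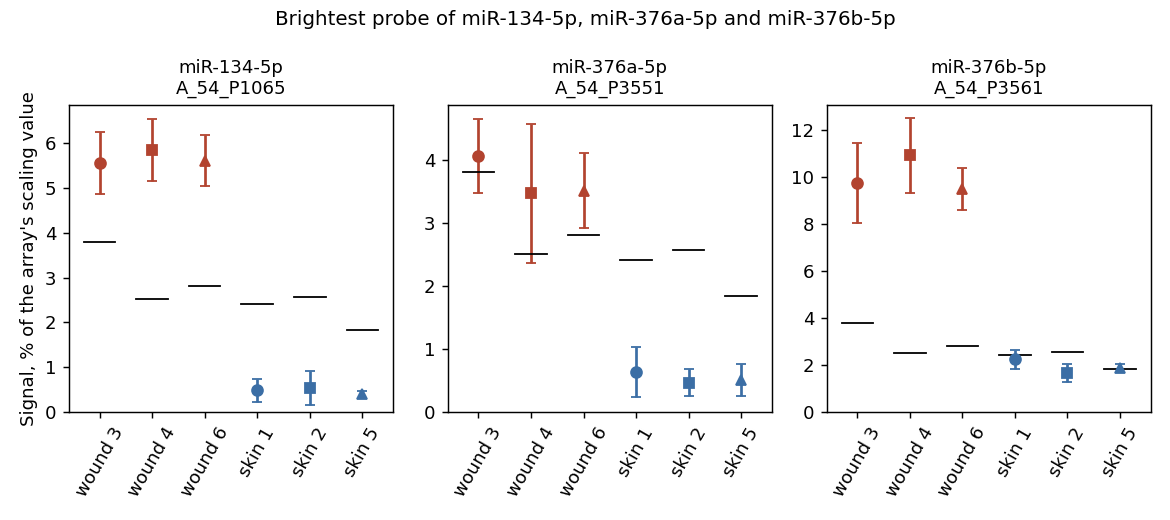
Brightest probe of miR-134-5p, miR-376a-5p and miR-376b-5p on each array, as a percentage of the array's scaling value; points are means over spots, bars their SD, and black lines the lowest signal above background there. All wound points lie above all skin points, and the skin points of miR-134-5p and miR-376a-5p lie under the black lines.

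The arms of a hairpin can be set side by side only by their differences between the groups. For Mir376b both arms were separated, by 3.74 for the 3p arm and 1.17 for the 5p arm on the log2 scale. For Mir376a the 3p arm differed by 2.88, and the 5p arm was measurable on 1 probe. The floor compresses the differences of the 5p arms, so the sizes do not show unequal change of the arms.

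The closest neighbours on the array were the names of the hairpins from Mir667 to Mir485 that are not members. Of 14 such names 5 were tested, and all 5 were higher in wound (limma with Benjamini-Hochberg adjustment over 222 names), beside 44.1% of all tested names. Of the 5, 3 passed the filter through the wound arrays alone and could hardly come out lower. miR-300-3p, the next hairpin after Mir376a, had log2 levels of -0.52, -0.82 and -0.72 on the wound arrays and -4.28, -4.89 and -4.41 on the skin arrays. It was 14.3-fold higher (3.84, SE 0.19, adjusted p = 3.9e-05), the largest difference of the cluster that was measured on both sides. miR-382-5p, the last hairpin before Mir134, was 11.4-fold higher (3.52, SE 0.08, adjusted p = 3.5e-06). Its value on skin array 5 was at the floor, which compresses this difference. miR-487b-3p, miR-382-3p and miR-381-3p had no skin array well above background and were at least 3.54-fold, 2.72-fold and 2.51-fold higher in wound. The 9 untested names, among them miR-668-3p and both arms of miR-485 from the hairpins that follow Mir134, did not pass the filter on dim signals.

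Over the whole distal cluster from Mir379 to Mir410, 36 hairpins in RefSeq, 44 other names were on the array and 23 were tested. The fit called 22 of the 23 higher and 0 lower, beside 44.1% of all tested names called higher, and their median difference was 2.39 against 0.38 over all tested names. 14 of the 23 passed the filter through the wound arrays with no skin array well above background and could hardly come out lower. Of the 9 well above background on all 6 arrays 8 were higher. The exception was miR-494-3p, with a difference of 0.52 (SE 0.52, adjusted p = 0.425). miR-377-3p was the other name among the 3 largest differences measured on both sides, with 3.55 (SE 0.12, adjusted p = 7.7e-06). It was well above background on all 6 arrays, as was miR-382-5p. Their skin values were at the floor on array 2 for miR-377-3p and on array 5 for miR-382-5p, which compresses both differences. In both slide rows all 23 differences were above 0. That the cluster's names rose was known from these data when the list was written.

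**Figure D4:**
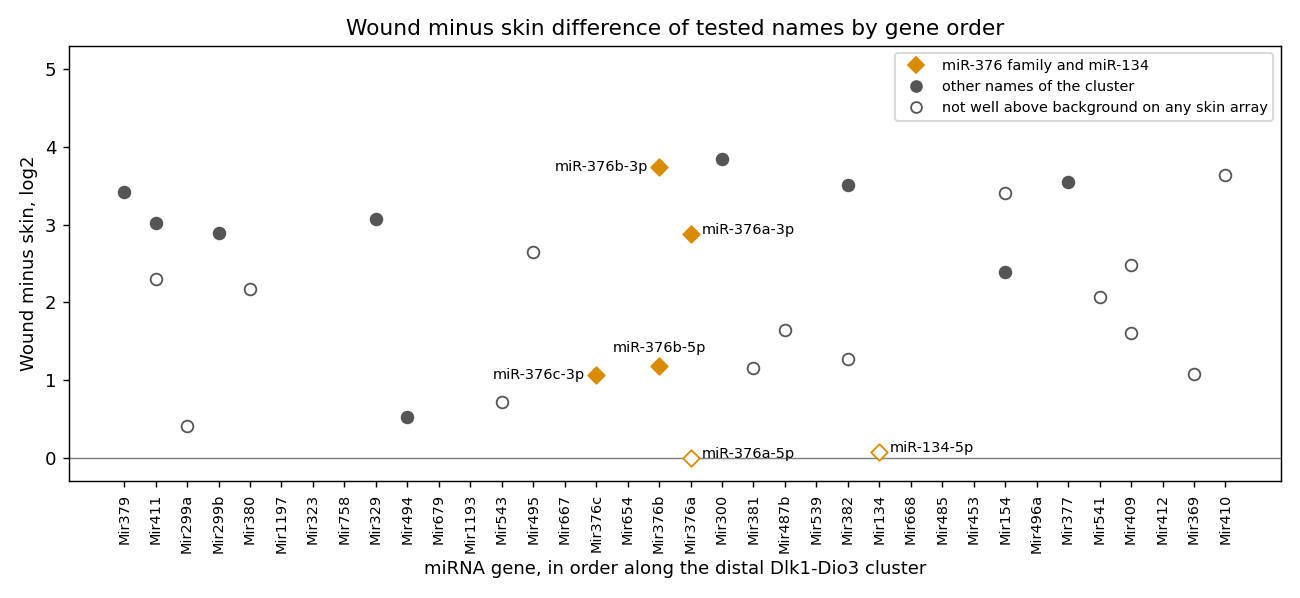
Wound minus skin difference (log2) of the 29 tested names of the distal cluster, by the order of their hairpins. Diamonds are the miR-376 family and miR-134, circles the other names, and open symbols had no skin array well above background, so their differences are compressed by the floor. Some filled symbols are compressed too. Every skin value of miR-376b-5p was at the floor, and so were some of miR-376b-3p and miR-376a-3p. miR-376b-3p (3.74) and miR-376a-3p (2.88) stand, in gene order, between miR-376c-3p (1.07) and miR-300-3p (3.84).

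Profiles were compared as log2 values over the 6 arrays, each centred on its own mean, by the root mean square difference from the names measured on all 6 arrays. The 3 closest to miR-376b-3p were miR-322-5p (0.39), miR-377-3p (0.39) and miR-300-3p (0.39) of 156 names. The 3 closest to miR-376a-3p were miR-411-5p (0.27), miR-337-3p (0.28) and miR-434-3p (0.30), all from the Dlk1-Dio3 region. For miR-376c-3p the closest of 155 names were miR-669f-3p (0.84), miR-214-3p (0.86) and miR-28a-5p (0.89), so no name came near its profile. Between members the difference was 0.52 for miR-376a-3p and miR-376b-3p, and 1.96 for miR-376b-3p and miR-376c-3p. The closest to miR-376b-5p were miR-143-3p (0.07), miR-146a-5p (0.11) and miR-378a-3p (0.11). miR-134-5p was closest to miR-214-5p (0.07), miR-2146 of an older registry version (0.07) and let-7i-5p (0.10), and miR-376a-5p to miR-214-5p (at 0), miR-2146 (0.07) and miR-199a-5p (0.10). For the last 2 members these distances only say that the profiles lie at the floor or are flat. The distances of miR-376b-5p also depend on the floor, where all its skin values and those of miR-146a-5p lie. Some skin values of miR-376b-3p and miR-376a-3p lie there too, so their distances depend on it in part.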

How the data were processed

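Scanner files deposited by the authors give a linear intensity for each spot, background-subtracted and not normalized between arrays. They were read with Feature Extraction 10.7.3.1, per the file headers. How the authors made their deposited log2 table is not stated in the sources used here. Signals without outlier flags were averaged per probe, divided by the scaling value, averaged over a name's probes, raised to the floor (the lowest scaled signal well above background, as a median over arrays) and taken to log2. A probe was well above background where over 50% of its spots were flagged so by the scanner. Groups were compared with limma 3.58.1 in R 4.3.3 (lmFit and eBayes, two-sided) at a Benjamini-Hochberg adjusted p of 0.05 over 222 names. Fits with a group at the floor in every array have no spread there, so their standard errors are too small. "At least" folds set the wound mean against, per array, the higher of the skin signal and the lowest signal well above background. All 6 arrays were on 1 slide and in 1 scan, and 0 spots were saturated. No coordinates of the files' own build (mm9) were used. Named are all members, tested names of the neighbouring hairpins, the 3 closest profiles of each tested member, and the distal cluster's uncalled name and 3 largest differences measured on both sides. Other names were chosen after their values were seen. Members, lists and tests were chosen with earlier results of these data known. Figures were drawn with matplotlib 3.10.9.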

Additional observations from a re-analysis of the deposited data

How the results depend on the processing

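Calls over all tested names numbered 144, 27 with normexp background correction (run on the median signal, since the files hold no mean signal), 78 with a floor 4 times as high, 0 with the deposited table taken by its column numbers and 127 to 136 with 1 array left out. For the other distal cluster names the 22 higher calls became 10 with normexp, 14 with the higher floor, 8 of 9 among names well above background on all arrays (fewer are tested), 0 by column numbers and 22 without any 1 array. Members with all wound values above all skin values numbered 3, but 5 with the total signal per microRNA, 6 with the brightest probe, 5 with a lower floor, 5 with the deposited table matched by values (added after the data were seen), 0 by column numbers, 2 with normexp or the higher floor and 3 to 4 with 1 array left out. By column numbers the differences of miR-134-5p, miR-376b-3p and miR-376c-3p turned to -2.61, -0.77 and -0.78 and that of miR-376a-5p, at the floor with the scanner files, was -2.42, because that numbering mixes the groups of the array titles. Leaving out 1 array gave 0.14 to 1.65 for miR-376c-3p. Over the alternatives that keep all 6 arrays, column numbers aside, miR-376b-3p differed by 2.12 to 4.50, miR-376a-3p by 1.15 to 5.67, miR-376b-5p by 0 to 4.24, miR-376c-3p by 0.38 to 1.55, miR-134-5p by 0 to 7.93 and miR-376a-5p by 0 to 6.85, the upper ends of miR-376a-3p and the 3 dim names coming from the deposited table, which has no common floor. The share of higher calls was 68.1%, and 40.6% with the 75th percentile of all probes, 50.0% with median scaling, 51.1% with quantile normalization and 50.0% with none, as the median of all tested names moved to -0.19, 0.00, 0 and -0.08 against 0.38. With normexp this median was 1.05. There miR-376b-3p and miR-376a-3p differed by 1.06 and 0.62 more than the median. For miR-376b-5p, miR-134-5p, miR-376a-5p and miR-376c-3p the excess was 0.05, 0.04, 0.03 and 0.02. No paired analysis was possible because the groups share no replicate numbers. Signals near the background limit what can be said of miR-134-5p and the 5p arms.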
